A study of Oryctolagus cuniculus with 16 samples.

Results

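Cells take up glucose, amino acids and lactate through membrane transporters of the solute carrier (SLC) superfamily. The genes described here are the members of 9 of its families, SLC1, SLC2, SLC3, SLC5, SLC7, SLC16, SLC36, SLC38 and SLC43, found by their gene symbols. The count matrix held 70 such symbols, and 64 of them had a count in at least 1 of the 16 libraries, out of 11925 genes with a count. The 6 symbols listed at 0 in every library were SLC2A7, SLC2A9, SLC7A4, SLC7A14, SLC16A3 (the lactate exporter MCT4) and SLC16A14. The neuronal glucose transporter SLC2A3, the inositol transporters SLC2A13 and SLC5A3, and SLC38A10 were not among the 70 symbols and so were not analysed.

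Laser microdissection gave RNA of intima and media separately, from the straight basilar artery (BA) and the basilar terminus (BT) of female New Zealand white rabbits. Rabbits 3 and 4 had normal flow (sham surgery), and in rabbits 5 and 6 both common carotid arteries had been ligated 24 h earlier, which raises flow through the basilar artery. All 4 rabbits gave 4 libraries each, so each of the 8 groups held 2 rabbits. In the tests of ligation within a tissue, p-values measure the spread between these few animals. The tests of layer, location and interaction took several libraries of a rabbit, and their p-values measure the spread between libraries or pairs. About the tissue, the study states that sections were pooled for a library and that the intimal strips took some vascular smooth muscle cells (VSMCs) along with the endothelial cells (ECs).

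The SLC2 proteins let glucose pass down its gradient, and SLC5 proteins drive sugars, vitamins and other solutes with sodium. Glucose transporter 1 (GLUT1, gene SLC2A1) is the main glucose carrier of the brain endothelium and one of the hallmarks of the blood-brain barrier. SLC16 proteins carry lactate, pyruvate and related molecules. Amino acids enter through SLC1, SLC7, SLC36, SLC38 and SLC43 proteins. Among the SLC7 proteins are light chains, many of which reach the membrane only when joined to the SLC3A2 heavy chain. One of these light chains, SLC7A11, exchanges glutamate for cystine, the precursor from which cells build glutathione.

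Counts on named genes were between 5211886 and 17686105 in the intimal libraries and between 2154863 and 11219236 in the medial libraries. The transporters took 0.129% to 0.286% of the counts in the intima and 0.107% to 0.164% in the media. Expression is given as CPM (counts scaled to a common library size by TMM over the 16 libraries). CPM was not divided by transcript length, so an order of genes by CPM is an order of shares of the reads and not of transcript levels. In RNA from a tissue strip, fewer cells of a type and less RNA per cell cannot be told apart. Endothelial markers summed to 1233 to 5929 CPM in the intima and 461 to 1666 CPM in the media, and 7 of 10 passed the threshold as higher in the intima. Smooth muscle markers summed to 10590 to 74417 CPM in the intima and 67146 to 118063 CPM in the media, and 5 of 6 measured were lower in the intima.

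Most transporter genes were expressed at a low level. Of the 64 members, 18 had a count in all 16 libraries, 49 exceeded 1 CPM on average in some group, and 21 did so in all 8 groups. The other 15 stayed at or below 1 CPM in every group and were tested nowhere. More than 50% of the CPM of 25 members came from 1 library. The intima of the BT of rabbit 3 was the highest library for 14 members and that of rabbit 4 for 7.

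The amino acid transporters of the SLC38 family took the largest share, 48.5% of all transporter CPM. The share was 13.1% for SLC2, 11.7% for SLC3, 9.1% for SLC7, 8.0% for SLC16, 4.3% for SLC43, 3.5% for SLC36, 1.3% for SLC1 and 0.64% for SLC5. One gene led each family in mean CPM, namely SLC1A5, SLC2A1, SLC3A2, SLC5A6, SLC7A1, SLC16A9, SLC36A4, SLC38A2 and SLC43A3. The summed CPM of all 64 members was 1285 to 2433 in the sham intima, 1409 to 1521 in the ligated intima, 1239 to 1532 in the sham media and 1476 to 1713 in the ligated media.

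**Figure D1:**
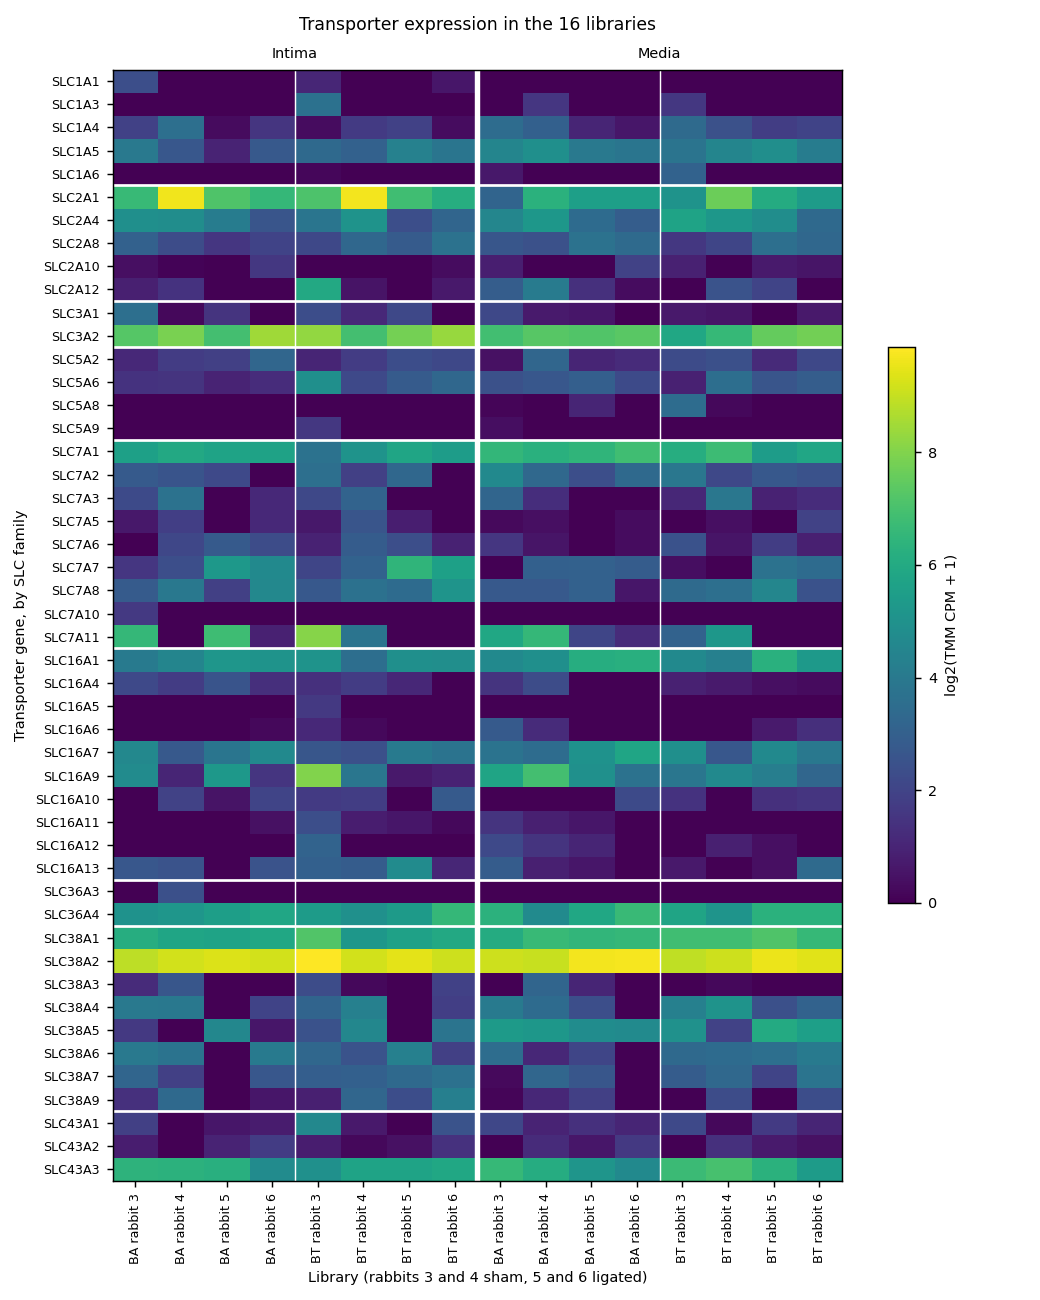
Expression of 48 of the 49 transporter genes whose average exceeded 1 CPM in some group, as log2(TMM CPM + 1) on the colour scale. Each column is 1 library, each row 1 gene, and white lines part the SLC families, the layers and the locations. SLC38A2 was bright in all 16 libraries (475 to 931 CPM), while most rows were dark in most libraries.

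The pairs of intima and media from the same rabbit and location were compared first, to ask which transporters belong to which layer of the wall. GLUT1 (SLC2A1) and the cationic amino acid light chain SLC7A7 (y+LAT1, which exports arginine and lysine in exchange for neutral amino acids) were higher in the intima. No member was lower there at the q-value threshold of 0.05 (edgeR quasi-likelihood F test with Benjamini-Hochberg adjustment, 8 pairs). Of the 40 members tested, 2 passed as higher, against 4.77% of the 9056 genes tested, and 0 as lower, against 4.23%. At an unadjusted p under 0.05, 3 members were higher and 5 lower, against 22.5% of all genes in either direction, and by DESeq2 8 members passed in either direction. The median log2 difference between intima and media was -0.29 over the 40 members and 0.05 over all genes tested.

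SLC2A1 was at 70.3 CPM in the lowest intimal library, 126 CPM at the median and 834 CPM in the highest. In the media the lowest library was at 8.0 CPM, the median at 46.3 CPM and the highest at 197 CPM. All 8 pairs were higher in the intima, by a ratio of 1.69 to 12.2 and a geometric mean of 3.76 (log2 difference 1.88, SE 0.34, q = 0.00599). The 2 intimal libraries of rabbit 4 stood far above the other 6, with 807 CPM in the BA and 834 CPM in the BT. The same 2 libraries had the highest ABCB1, an efflux pump of the brain endothelium, at 588 and 697 CPM against 129 to 366 CPM in the other intimal libraries. Without rabbit 4 the log2 difference of SLC2A1 was 1.56 and q = 0.0721, and with any of the other rabbits left out q was 0.0136 to 0.0236.

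SLC7A7 was at 2.0 CPM in the lowest intimal library, 16.2 CPM at the median and 86.5 CPM in the highest, against 0, 6.7 and 12.2 CPM in the media. In 7 of 8 pairs it was higher in the intima (log2 difference 2.67, SE 0.73, q = 0.0399). The pair that went the other way was that of the BA of rabbit 4, with 4.2 CPM in the intima and 7.2 CPM in the media. The q-value lost its side of the threshold without rabbit 3 (0.0781), rabbit 5 (0.160) or rabbit 6 (0.167), and kept it without rabbit 4 (0.0396). It was also 0.0955 when the counts of both locations were summed for each rabbit, and the SLC2A1 value was 0.0483 in that fit.

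Among the members that did not pass, the 3 with the smallest p on the medial side were the arginine transporter SLC7A1, the glutamine transporter SLC38A1 and the lactate carrier SLC16A1 (MCT1). SLC7A1 was at 12.2, 48.8 and 61.3 CPM (lowest, median and highest) in the intima and 43.01, 81.6 and 114 CPM in the media (log2 -0.93, SE 0.29, q = 0.0705). SLC38A1 was at 35.9, 56.2 and 143 CPM in the intima and 65.9, 97.5 and 140 CPM in the media (log2 -0.73, SE 0.24, q = 0.0789). For SLC16A1 the log2 difference was -0.69 (SE 0.24, q = 0.104). The glutamine carrier SLC1A5 (ASCT2) was lower in the intima in all 8 pairs, with medians of 8.4 CPM in the intima and 19.1 CPM in the media (log2 -1.29, SE 0.46, q = 0.109). Of the 40 members, 1 was higher in 8 of 8 pairs (2.5%, against 5.41% of all genes) and 1 was lower (2.5%, against 3.95%). The heavy chain SLC3A2 had its higher level in the intima in 7 of 8 pairs and did not pass (log2 0.65, SE 0.25, q = 0.128). The glutamine transporter SLC38A5 was lower in 7 of 8 pairs, with a wide error (log2 -3.50, SE 1.39, q = 0.152).

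**Figure D2:**
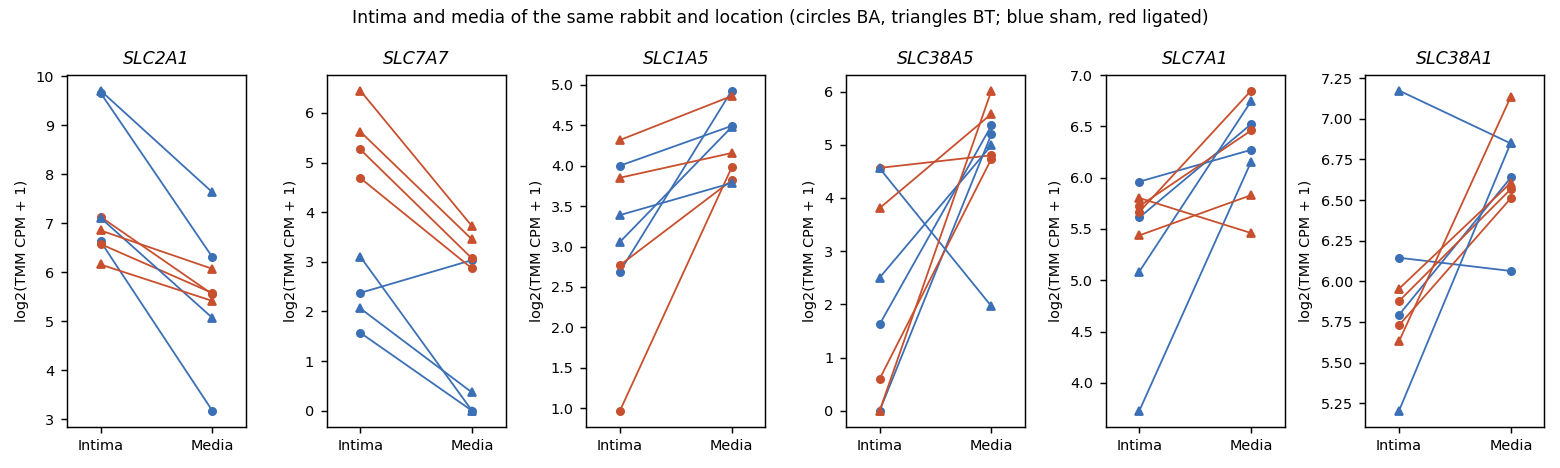
Expression in the intima and the media as log2(TMM CPM + 1) for 6 transporters, a line joining the libraries of the same rabbit and location. Circles are BA, triangles BT, blue lines sham and red lines ligated rabbits. All 8 lines of SLC2A1 fall from intima to media and all 8 lines of SLC1A5 rise, while SLC7A7 falls in 7 of 8.

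Regulators of these transporters were compared in the same pairs, as a list of 10 genes for the monocarboxylate transporter chaperones and the trafficking of glucose transporters. Of 8 tested, 2 were higher and 1 lower in the intima. TXNIP, an arrestin-like protein that takes GLUT1 off the membrane, was at 141 to 592 CPM in the intima and 34.3 to 116 CPM in the media (log2 2.39, SE 0.27, q = 0.000887). The GTPase-activating proteins of GLUT4 vesicles split, TBC1D4 being higher in the intima (log2 2.69, q = 0.00777) and TBC1D1 lower (log2 -0.69, q = 0.0272). EMB, the chaperone of MCT2, was at 9.2 CPM in the BT intima of rabbit 3 and below 1 CPM in the other 15 libraries. The MCT1 chaperone BSG was not analysed here.

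Genes that make or use arginine, which SLC7 carriers bring in, were divided, with 3 of the 8 tested above 0 and 5 below 0 in log2 difference between intima and media (median -0.34). The endothelial nitric oxide synthase NOS3 (log2 3.82, SE 0.60, q = 0.00317) and the arginine-making enzyme ASS1 (log2 4.07, SE 0.61, q = 0.00257) were the 2 that passed, both higher in the intima. In the list of amino acid response genes linked to the transcription factor ATF4, 3 of 14 were lower in the intima and 0 higher. They were the serine-making enzyme PHGDH (log2 -2.45, q = 0.0180), the mitochondrial folate enzyme ALDH1L2 (log2 -1.51, q = 0.0158) and the stress factor DDIT3 (log2 -0.88, q = 0.00924). PFKP, a phosphofructokinase, was the 1 of 12 glucose metabolism genes that was lower in the intima (log2 -0.94, q = 0.0215), and 0 were higher. LAMTOR4, a subunit of the complex that anchors mTORC1 on the lysosome, (log2 0.58, q = 0.0373) was the 1 of 18 lysosomal sensing genes that was higher. NFE2L2, a transcription factor that drives SLC7A11 and glutathione genes, was the 1 of 10 cystine and glutathione genes that was higher (log2 0.54, q = 0.0494). The proline-making enzyme ALDH18A1 was the 1 of 7 glutamine and glutamate enzymes that was lower (log2 -0.78, q = 0.0364).

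Ligated and sham rabbits were then compared within each tissue, to ask which transporters changed with the rise in flow. The cystine transporter SLC7A11 fell in the media at both locations and was the 1 transporter that passed the threshold with ligation. Of the 40 members tested in the BA media 1 passed, against 0.807% of the 8800 genes tested, namely 1 lower (0.375%) and 0 higher (0.432%). Of the 35 tested at the BT 1 passed, against 2.32% of 8783 genes, namely 1 lower (1.18%) and 0 higher (1.14%). No member passed in the BA intima (41 tested) or the BT intima (42 tested), where 0% of all genes did in the fits used here. The study, which filtered on RPKM, did report intimal genes past a q-value of 0.05, and it lists SLC7A11 and SLC16A9 among them. The reason for this difference was not tested. At an unadjusted p under 0.05, 2 members of the BA intima (5.91% of all genes), 6 of the BT intima (11.6%), 10 of the BA media (13.6%) and 7 of the BT media (16%) were past it. By DESeq2, a q-value of 0.05 was passed by 1 member for the BA intima and 6 for the BT intima.

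In the BA media SLC7A11 was at 57.8 and 93.6 CPM in the sham rabbits and at 3.2 and 1.3 CPM in the ligated rabbits. These were 613 and 572 counts against 6 and 5 counts. The groups were far apart, with a mean of 75.7 ± 25.3 CPM (SD, n = 2) against 2.2 ± 1.3 CPM (SD, n = 2), and SLC7A11 fell by 5.13 on the log2 scale (SE 0.73, q = 0.0248). With 1 rabbit left out in turn, the log2 difference was -5.79 to -4.56 and q was 0.174 without rabbit 3, 0.221 without rabbit 4, 0.352 without rabbit 5 and 0.458 without rabbit 6.

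In the BT media SLC7A11 was at 7.6 and 35.97 CPM (26 and 223 counts) in the sham rabbits and at 0 in both ligated rabbits. Read against 3 counts in each ligated library, the fall on the means was at least 33.9-fold (q = 0.0176). The q-value was 0.0875 without rabbit 4 and 0.186 without rabbit 6, and it stayed under 0.05 without rabbit 3 or rabbit 5. In the BT intima SLC7A11 was at 269 and 12.7 CPM in the sham rabbits and at 0 in both ligated rabbits, at least 557-fold lower on the means, and did not pass (q = 0.267). Without rabbit 4 the fit there had rabbit 3 alone as the sham group, so the spread between sham rabbits was not measured. In the BA intima the values did not follow ligation, with 93.3 and 0 CPM in the sham rabbits and 110 and 0.86 CPM in the ligated rabbits.

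The summed level of markers of leptomeningeal and adventitial fibroblasts, the cells that surround these arteries, moved with SLC7A11 in the media of both locations and in the BT intima. The sum over 14 genes, 13 of them with a count, was 26195 to 34471 CPM in the sham BA media and 6855 to 7238 CPM in the ligated BA media. In the BT media it was 15595 to 19685 CPM against 6015 to 7811 CPM, and in the BT intima 5812 to 20723 CPM against 653 to 1303 CPM. The markers did not all move this way. In the BA media 4 of 13 tested passed as lower with ligation (APOD, OGN, DCN and COL1A2, which were among the abundant ones), and ALDH1A2 passed as higher, from 105 and 70.3 CPM to 559 and 405 CPM (log2 2.48, SE 0.38, q = 0.0310). In the BT media 1 of 12 passed, OGN as lower, and 4 had a log2 difference above 0, as 4 of 13 had in the BA media. At 0 in both libraries of a group were SLC6A13 and SLC22A8 in the ligated BT media and DPT, SLC6A13, SLC22A6 and SLC22A8 in the ligated BT intima, and none in the BA media or in the sham groups of the BT.

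The matrix protein decorin (DCN) was at 6989 and 4376 CPM in the sham BA media and at 1918 and 1515 CPM in the ligated. At the BT the DCN groups of the media overlapped, with 1648 and 2012 CPM in the sham rabbits and 1229 and 2427 CPM in the ligated, where SLC7A11 was at 0. In the BA intima DCN was at 1824 CPM in rabbit 3, 8.2 CPM in rabbit 4, 1940 CPM in rabbit 5 and 17.5 CPM in rabbit 6. For DCN, the rabbits with high and low values in that tissue were thus the same ones as for SLC7A11. APOD split the rabbits the same way, and some other fibroblast markers did not. In rabbits 3 to 6 LUM was at 352, 9.0, 0 and 0 CPM there, and CRABP2 at 8.7, 40.4, 19.0 and 140 CPM. The part of fibroblast RNA in the SLC7A11 result was not tested.

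**Figure D3:**
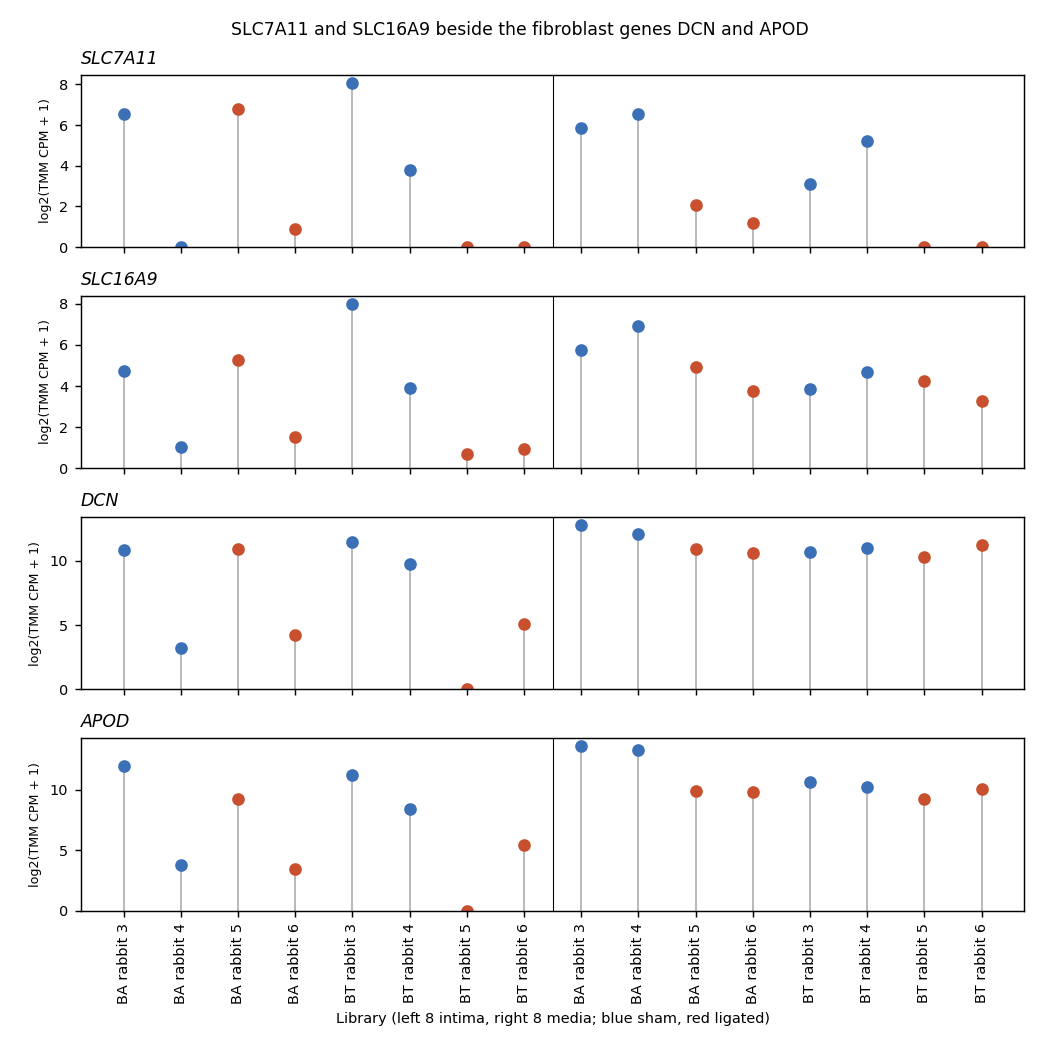
Expression of SLC7A11, SLC16A9 and the fibroblast genes DCN and APOD in the 16 libraries, each as log2(TMM CPM + 1) on its own axis from 0. Blue points are sham and red points ligated rabbits, the intima left and the media right of the line. In the BA intima rabbits 3 and 5 are high and rabbits 4 and 6 low in all 4 panels, as not all fibroblast markers were. In the BT media SLC7A11 is at 0 in both ligated libraries while DCN is at 1229 and 2427 CPM.

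SLC7A7 had the smallest p-value on the higher side in both intimal tissues and did not pass in any of the 4 tissues by edgeR. By DESeq2 it passed in the BA intima (q = 0.0122), the BT intima (q = 0.000172) and the BT media (q = 0.0138). Its values in the BA intima were 2.0 and 4.2 CPM in the sham rabbits and 37.5 and 24.8 CPM in the ligated (log2 3.35, SE 0.89, q = 0.624). The intima of the BT had 3.2 and 7.6 CPM against 86.5 and 48.3 CPM (log2 3.66, SE 0.72, q = 0.260). In both intimal tissues the ligated rabbits were above the sham rabbits without overlap.

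SLC7A7 in the BT media had 1 and 0 counts in the sham rabbits and 39 and 85 counts in the ligated, or 12.2 and 9.9 CPM. The ratio was 102, with an exact 95% interval of 17.9 to 4046 that covers counting error alone (q = 0.0977). In the BA media the groups overlapped, with 0 and 7.2 CPM in the sham rabbits and 7.4 and 6.3 CPM in the ligated.

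Macrophages express SLC7A7 strongly, and a list of 12 macrophage and leukocyte markers was read beside it. Its sum was 142 to 1117 CPM in the sham BT intima and 62.5 to 121 CPM in the ligated, where C1QA, C1QB, CD163 and CSF1R were at 0. Of the defining genes, TYROBP was at 0 and 0.082 CPM there and AIF1 at 0 and 1.3 CPM. CD14 was at 121 and 54.7 CPM in the ligated BT intima and at 57.0 and 58.9 CPM in the sham. In the BA intima the sum was 77.3 to 522 CPM in the sham rabbits and 104 to 203 CPM in the ligated. The BT media, where SLC7A7 went from 1 and 0 to 39 and 85 counts, had a higher sum in the ligated rabbits, 112 to 181 CPM against 87.9 to 92.7 CPM. Of the 9 markers tested in the BT media, 6 had a log2 difference above 0 and 3 below 0. C1QA was at 2.0 and 3.1 CPM in the sham BT media and at 12.5 and 26.4 CPM in the ligated. CD163 was at 0 against 3.7 and 6.1 CPM. TYROBP was at 31.7 and 12.6 CPM against 18.4 and 51.8 CPM, and MRC1 at 6.4 and 18.7 CPM against 7.8 and 5.7 CPM. For the BA media the sum was 270 to 343 CPM in the sham rabbits and 71.0 to 172 CPM in the ligated. The list had 0 markers past the threshold with ligation in the 4 tissues, and the part of macrophage RNA in the SLC7A7 values was not tested.

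SLC3A2 is the heavy chain that partners SLC7A7, SLC7A11 and other light chains. It was at 57.5 and 97.1 CPM in the sham BT media and at 182 and 215 CPM in the ligated (log2 1.37, SE 0.39, q = 0.0969). The BA media had it at 116 and 157 CPM against 143 and 161 CPM, and the groups overlapped. The interaction of location and ligation in the media had a log2 difference of 1.18 (SE 0.53, q = 0.770), so a difference between the locations was not shown. In the intima SLC3A2 ranged from 120 to 346 CPM with no separation of sham and ligated rabbits at either location.

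Of the other SLC7 members, the arginine transporter SLC7A1 had 70.3 and 106 CPM in the sham BT media. In the ligated BT media it had 43.01 and 55.9 CPM, and its groups overlapped in the BA media. Its values in the BT intima were 12.2 and 32.9 CPM in the sham rabbits and 54.8 and 42.3 CPM in the ligated (log2 1.11, SE 0.65, q = 0.513). SLC7A3, another cationic amino acid transporter, was at 3.5 and 7.9 CPM in the sham BT intima and at 0 in both ligated rabbits. It was at least 22.4-fold lower there on the means (q = 0.325). SLC7A2 reached 24.5 CPM, SLC7A8 (LAT2) 33.0 CPM and SLC7A6 (y+LAT2) 6.3 CPM at most. SLC7A5, the large neutral amino acid carrier LAT1 of the blood-brain barrier, had 0 to 35 counts in a library and at most 5.1 CPM. The serine carrier SLC7A10 had counts in 1 library, with 2.1 CPM in the BA intima of rabbit 3.

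**Figure D4:**
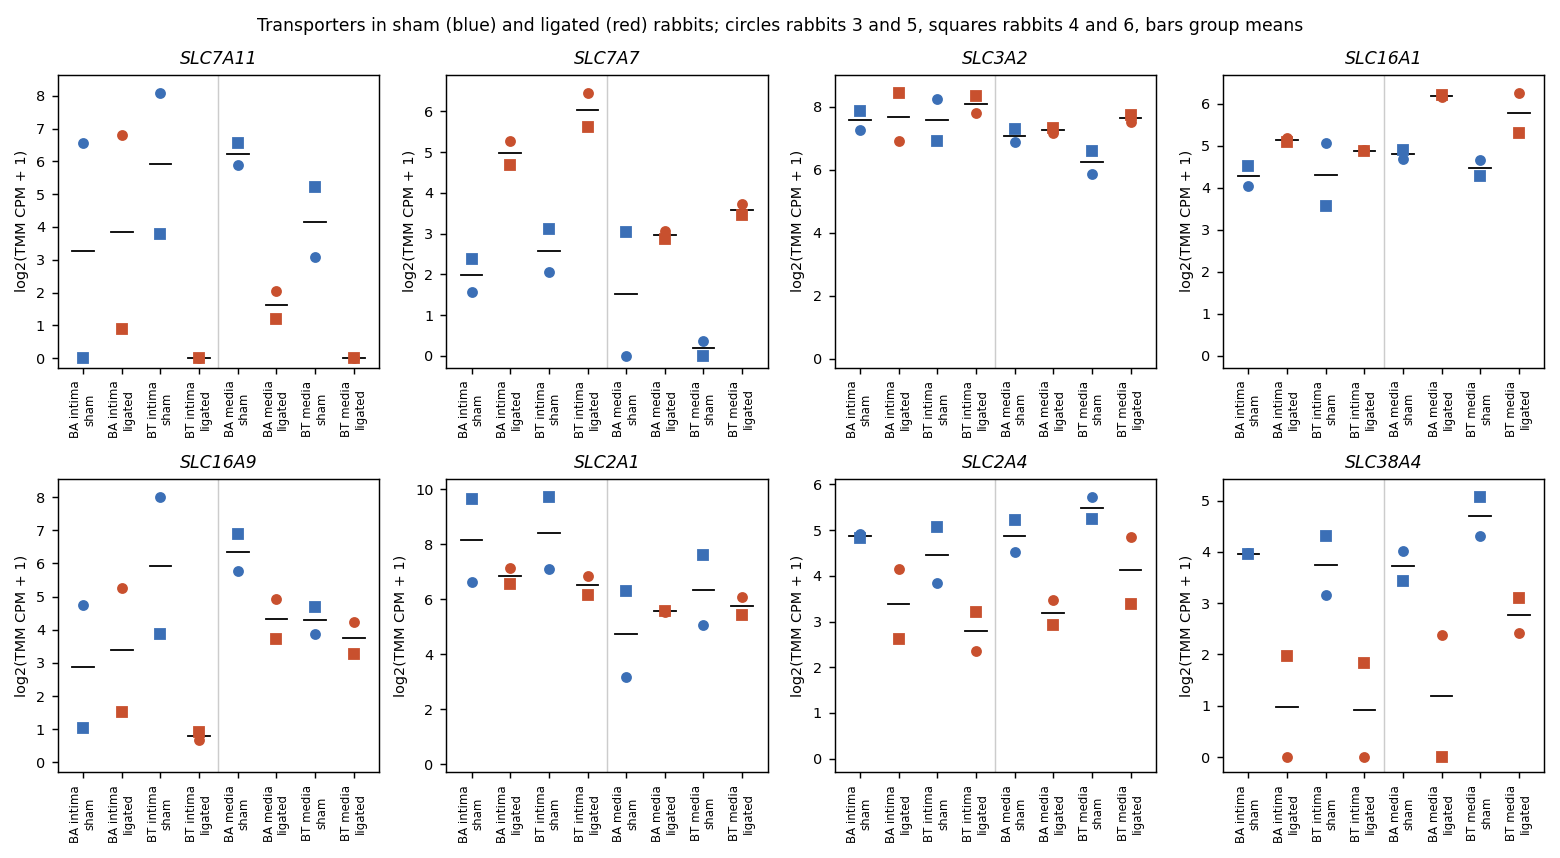
Expression of 8 transporters in the 8 groups as log2(TMM CPM + 1). Each point is 1 library, blue for sham and red for ligated rabbits, and the bar is the mean of the log2 values of the 2 libraries. SLC7A11 was at 0 in all 4 ligated BT libraries, and SLC2A4 and SLC38A4 were lower in both ligated rabbits than in both sham rabbits in all 4 tissues.

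Of the SLC16 family, 3 members came next after SLC7A11 by p-value in the BA media, SLC16A9 and the lactate carriers MCT2 and MCT1, and none of them passed. MCT1 (SLC16A1) was at 24.8 and 29.0 CPM in the sham BA media and at 70.7 and 73.7 CPM in the ligated (log2 1.45, SE 0.47, q = 0.226). The media of the BT had 24.4 and 18.4 CPM against 75.7 and 38.6 CPM (log2 1.42, SE 0.56, q = 0.234). The BA intima had 15.4 and 21.7 CPM against 35.6 and 32.9 CPM (log2 0.88, SE 0.65, q = 0.878). In these 3 tissues the ligated rabbits were above the sham rabbits, and in the BT intima the groups overlapped.

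MCT2 (SLC16A7) was at 12.4 and 10.1 CPM in the sham BA media and at 31.6 and 55.0 CPM in the ligated (log2 1.96, SE 0.63, q = 0.224). The BT media had it at 29.3 and 5.5 CPM against 24.9 and 14.3 CPM, and the groups overlapped. The enzyme that makes lactate from pyruvate, LDHA, was at 205 and 220 CPM in the sham BT media and at 748 and 601 CPM in the ligated, and rose (log2 1.67, SE 0.31, q = 0.0161). LDHA in the BA media was at 135 and 126 CPM against 444 and 431 CPM and did not pass. It was the 1 of 12 tested glucose metabolism genes that passed in the BT media, and 0 of 12 passed in the BA media.

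SLC16A9, a carnitine transporter, was high in the same intimal libraries as SLC7A11. Its values in the BT intima were 254 and 13.8 CPM in the sham rabbits and 0.60 and 0.91 CPM in the ligated (log2 -7.45, SE 1.53, q = 0.267). The media of the BA had 53.8 and 119 CPM against 29.5 and 12.3 CPM (log2 -2.03, SE 0.63, q = 0.209). The BA intima had 25.9 and 1.0 CPM against 37.5 and 1.9 CPM, high in rabbits 3 and 5 as SLC7A11 and DCN were. In the BT intima the log2 difference of SLC16A9 was -8.40 with rabbit 4 left out, when rabbit 3 alone was the sham group.

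The creatine carrier SLC16A12 was at 7.7 CPM in the BT intima of rabbit 3 and at most 3.6 CPM elsewhere. SLC16A13 was uneven, with 25.7 CPM in the BT intima of rabbit 5 and 0 in 3 libraries. The other 5 members of this family, SLC16A4, SLC16A5, SLC16A6, SLC16A10 and SLC16A11, did not exceed 5.9 CPM.

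**Figure D5:**
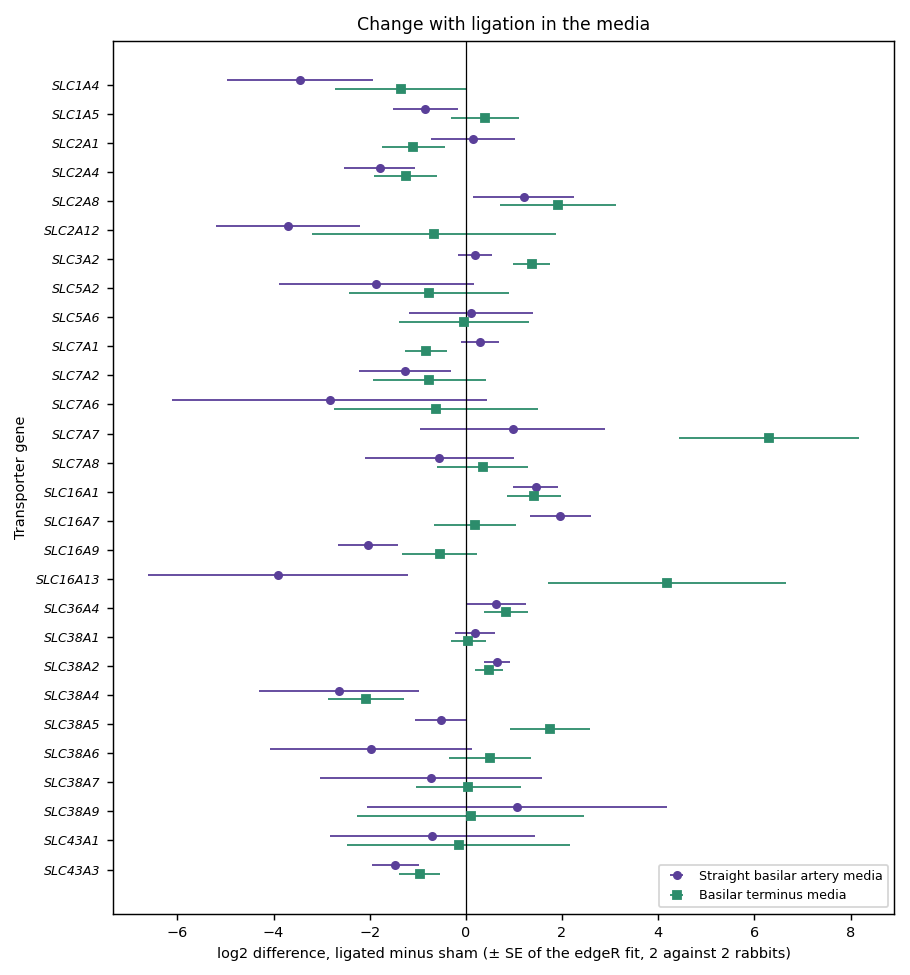
Change with ligation in the media for 28 of the 29 transporters that were tested at both locations with a finite error, as log2 difference of ligated minus sham rabbits. Circles are the BA and squares the BT, and bars are ± SE of the edgeR fit of 2 against 2 rabbits. SLC16A1 lies at 1.45 and 1.42 and SLC43A3 at -1.47 and -0.96, none past the q-value threshold, and SLC7A11 is not drawn since its error could not be given at the BT.

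GLUT1 in the intima was lower in the ligated rabbits on the means and did not pass. In the BA intima SLC2A1 was at 97.9 and 807 CPM in the sham rabbits and at 139 and 94.3 CPM in the ligated (log2 -1.94, SE 0.82, q = 0.810). Without rabbit 4 the log2 difference turned to 0.24, and without rabbit 3 it was -2.77, each time with only the other sham rabbit left. Its values in the BT intima were 137 and 834 CPM against 114 and 70.3 CPM (log2 -2.39, SE 0.85, q = 0.371), with no overlap. In the media SLC2A1 was at 8.0 and 78.2 CPM against 45.9 and 46.7 CPM in the BA and at 32.5 and 197 CPM against 66.1 and 41.6 CPM in the BT, where the groups overlapped.

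The insulin-responsive transporter GLUT4 (SLC2A4) was lower in both ligated rabbits than in both sham rabbits in all 4 tissues, which came from the same 4 animals. It was at 29.2 and 27.4 CPM against 16.6 and 5.1 CPM in the BA intima, and at 13.3 and 32.6 CPM against 4.1 and 8.2 CPM in the BT intima. In the media it was at 21.8 and 36.5 CPM against 10.0 and 6.6 CPM in the BA (log2 -1.79, SE 0.75, q = 0.344), and at 51.7 and 36.6 CPM against 27.7 and 9.5 CPM in the BT. None of these passed. The intracellular transporter SLC2A8 (GLUT8) went the other way in the media, with 5.2 and 4.4 CPM against 12.1 and 9.7 CPM in the BA and 2.0 and 3.2 CPM against 11.2 and 8.8 CPM in the BT, and did not pass.

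SLC2A12 (GLUT12) was at 60.3 CPM in the BT intima of rabbit 3 and at no more than 16.4 CPM in any other library. The media of the BA had 6.6 and 16.4 CPM in the sham rabbits and 1.6 and 0.26 CPM in the ligated (log2 -3.70, SE 1.501, q = 0.328). SLC2A10, whose loss causes arterial tortuosity, had at most 2.9 CPM. Of the sodium-driven SLC5 family, the vitamin carrier SLC5A6 had 0.87 to 29.4 CPM and the glucose carrier SLC5A2 (SGLT2) 0.38 to 8.7 CPM in all 16 libraries. SLC5A8, a sodium-driven monocarboxylate carrier, was at 10.2 CPM (35 counts) in the BT media of rabbit 3 and had at most 2 counts in any other library. The other 7 SLC5 members with a count did not exceed 2.0 CPM.

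The most heavily read transporter, SLC38A2 (SNAT2), a sodium-driven carrier of small neutral amino acids that responds to amino acid supply, was also the steadiest. It ranged from 475 to 931 CPM with a coefficient of variation of 21.0% over the 16 libraries. The BA media had it at 551 and 528 CPM in the sham rabbits and at 823 and 838 CPM in the ligated, a small difference with little spread (log2 0.65, SE 0.28, q = 0.359). Its values in the BT media were 483 and 556 CPM against 754 and 685 CPM and likewise did not overlap.

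SLC38A4 (SNAT4) was the second transporter that was lower in both ligated rabbits in all 4 tissues, so that 2 of the 32 members tested in all 4 did so (6.25%), against 3.11% of 7930 genes, and 0 were higher in all 4, against 3.68%. It was at 14.8 and 14.5 CPM against 0 and 2.9 CPM in the BA intima (q = 0.860) and at 8.0 and 18.7 CPM against 0 and 2.6 CPM in the BT intima. The media of the BT had 18.9 and 32.6 CPM against 4.4 and 7.6 CPM (log2 -2.08, SE 0.80, q = 0.219). The BA media had 15.2 and 9.8 CPM against 4.2 and 0 CPM. The glutamine carrier SLC38A5 (SNAT5) was at 30.8 and 2.9 CPM in the sham BT media and 63.9 and 46.9 CPM in the ligated (log2 1.75, SE 0.84, q = 0.338). Without rabbit 3 that log2 difference was 4.25, with rabbit 4 alone as the sham group.

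The SLC38 members of the lysosome were low, with at most 12.7 CPM for SLC38A7, which lets glutamine out, and 18.2 CPM for SLC38A9, which signals arginine to mTORC1. SLC36A4, a carrier of proline and tryptophan, was at 25.2 to 102 CPM in all 16 libraries. The BT media had it at 53.7 and 33.9 CPM in the sham rabbits and 77.3 and 78.2 CPM in the ligated without overlap. The lysosomal SLC36A1 had at most 0.62 CPM. SLC43A3, a carrier of purine bases, was at 96.0 and 68.2 CPM in the sham BA media and at 34.3 and 24.4 CPM in the ligated (log2 -1.47, SE 0.49, q = 0.233). Its values in the BT media were 106 and 128 CPM against 77.6 and 42.2 CPM (log2 -0.96, SE 0.43, q = 0.298). The leucine carriers SLC43A1 and SLC43A2 were low, except for 23.6 CPM of SLC43A1 in the BT intima of rabbit 3.

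In the SLC1 family, ASCT2 (SLC1A5) was at 0.96 to 29.4 CPM in all libraries, and ASCT1 (SLC1A4) at 10.3 and 7.0 CPM in the sham BA media against 1.1 and 0.52 CPM in the ligated (log2 -3.45, SE 1.52, q = 0.366). The glutamate transporters of neural tissue were close to absent. SLC1A2 had 7 counts in all, and SLC1A3 had 176 counts in the BT intima of rabbit 3, 7 in the BT media of rabbit 3, 12 in the BA media of rabbit 4 and 0 in the other 13 libraries. SLC1A1 had counts in 3 libraries and reached 4.2 CPM, and SLC1A6 reached 7.6 CPM in the BT media of rabbit 3.

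Over the members tested, the median log2 difference between ligated and sham rabbits was -0.87 for the BA intima (all genes -0.10), -0.54 for the BT intima (all genes -0.13), -0.79 for the BA media (all genes -0.14) and -0.04 for the BT media (all genes 0.03). These medians were the same to 2 decimals with the 3 to 6 members that had a group at 0 set to their bound. The bound keeps the direction of a member, so a median could hardly move. In the BA media 18 of 40 members (45%) were lower in both ligated rabbits than in both sham rabbits, against 26% of all genes, and 4 (10%) were higher, against 21%. At the BT 8 of 35 medial members (22.9%) were lower, against 23.1%, and 8 were higher, against 25.4%. The BA intima had 12 of 41 (29.3%) lower, against 20%, and 7 (17.1%) higher, against 15.4%. The BT intima had 8 of 42 (19%) lower, against 25.6%, and 6 (14.3%) higher, against 20.4%. A gene entered a test when 1 of the compared groups had a mean above 1 CPM, so low members entered through their higher group, and these counts describe the members tested. By family in the BA media, 7 of 10 SLC16 members, 5 of 7 SLC7 members and 5 of 8 SLC38 members had a log2 difference below 0. At the BT this held for 2 of 6, 5 of 8 and 1 of 7 members.

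In the lists of partner genes, 6 genes passed with ligation in the BT media, where 2.32% of all genes did, and none in the other 3 tissues. In the ATF4 list 3 of 12 tested were lower there and 0 higher. ATF3 was at 59.0 and 73.2 CPM in the sham rabbits and at 13.1 and 12.04 CPM in the ligated (log2 -2.39, SE 0.54, q = 0.0419). DDIT3 (log2 -1.35, q = 0.0348) and PHGDH (log2 -1.87, q = 0.0448) were the other two. Of the 18 lysosomal sensing genes FNIP1, a partner of folliculin, was lower (log2 -2.10, q = 0.0281). In the cystine and glutathione list SRXN1, which repairs oxidised peroxiredoxins, rose from 17.1 and 33.7 CPM to 172 and 164 CPM (log2 2.72, SE 0.45, q = 0.00927), and the other 9 did not pass. SRXN1 in the BA media was at 25.0 and 34.0 CPM against 126 and 116 CPM and did not pass. The study lists SRXN1 and TBC1D4 among its differentially expressed intimal genes, and neither passed in the intima here. In the BT intima SRXN1 was at 21.5 and 54.0 CPM in the sham rabbits and at 169 and 203 CPM in the ligated. TBC1D4 was at 44.9 and 185 CPM there against 16.3 and 10.2 CPM. Genes of the arginine, glutamine, osmolyte, thyroid hormone and transporter regulator lists did not pass in the 4 tissues. In the BT media 8, 7, 5, 3 and 7 of them were tested, in that order. The glucose metabolism list, which holds LDHA, had 12 tested there.

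A pair of transporter groups were also read as lists, those that ATF4 is known to drive and those of the endothelial barrier, 11 members each. In the first, SLC7A11 passed in both media and 0 others passed, and the median log2 difference was -0.26 for the BA media and 0.05 for the BT media. In the second, 0 passed with ligation in any tissue and SLC2A1 passed between the layers.

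The BT was compared with the BA with flow as a covariate, 4 against 4 libraries of a layer, and no member passed (42 tested in the intima, 39 in the media), as 0% of all genes did. The smallest q among the members was 0.9999 in the intima and 0.997 in the media. At an unadjusted p under 0.05, 2 members were higher in the BT intima, where 2.97% of the 9131 genes were past that p in either direction, and 2 were higher and 2 lower in the BT media, where 4.02% of 8829 were. In the intima they were SLC5A6 (log2 2.95, SE 0.86) and SLC2A12 (log2 4.60, SE 1.74). SLC5A6 was at 3.5 to 29.4 CPM in the BT and 0.96 to 1.8 CPM in the BA, with no overlap. In the media they included SLC43A3 (log2 0.76, SE 0.32) as higher, and SLC7A11 (log2 -2.55, SE 0.79) and SLC16A9 (log2 -1.44, SE 0.51) as lower in the BT. Fibroblast marker sums were lower in the sham BT media than in the sham BA media (15595 to 19685 CPM against 26195 to 34471 CPM). In the ligated media they overlapped (6015 to 7811 CPM in the BT and 6855 to 7238 CPM in the BA). In the sham media APOD was at 1597 and 1217 CPM in the BT against 12291 and 9923 CPM in the BA. OGN overlapped, at 8323 and 11800 CPM against 9449 and 6878 CPM. The part of fibroblast RNA in these location values was not tested.

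The interactions asked whether the change with ligation differed between the locations or the layers, and no member passed in the intima (46 tested), the media (43 tested) or between the layers (49 tested). Of all genes 0%, 0.0213% and 0% passed. In the media the smallest q among the members was 0.730. At an unadjusted p under 0.05 there were 2 members in the intima, SLC7A11 and SLC16A9, 5 in the media, SLC16A6, SLC3A2, SLC16A13, SLC7A11 and SLC5A8, and 0 between the layers. Of all genes, 3.12%, 6.45% and 4.85% were past that p. By DESeq2, SLC7A11 and SLC16A9 passed in the intima. For SLC7A11 the groups at 0 leave the size of the interaction without a finite error.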

How the data were processed

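RNA-seq counts of 16 libraries were analysed. The deposited table holds counts, not normalized, for 13788 gene symbols. The authors amplified RNA with SMART-Seq v4, mapped single reads to the rabbit genome OryCun2.0 with STAR, and counted those with a unique position with featureCounts 1.6.2. The kit does not mark strand, so antisense and overlapping genes, and near-identical copies, could not be told apart. The authors ran featureCounts with its setting for reversely stranded reads, and the effect of this on the counts was not tested. An entry without a symbol was left out (13.8% to 18.7% of the counts). All 16 columns belonged to a sample.

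Comparisons used the quasi-likelihood F test (legacy form) of edgeR 4.0.16 (R 4.3.3) after TMM scaling. Genes with a mean above 1 CPM in at least 1 compared group were tested, and Benjamini-Hochberg q-values were adjusted over all of them at a threshold of 0.05. SE is on the log2 scale and was left out where a group was at 0. There folds of the group mean were taken against 3 counts per library and given as lower bounds. This limit and the intervals cover counting error only. Intima and media were paired by rabbit and location, as the labels give them. Deviations from the group means correlated at -0.03 to 0.22 between the layers of a rabbit and 0.07 to 0.41 between its locations, over 8702 genes. Ligated and sham rabbits could not be paired. Chi-square per degree of freedom between replicates was 22.5 to 456.

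The members and the gene lists were chosen with earlier results of these data known. Genes named were members past the threshold, the 3 members with the smallest p in each direction of a comparison, the leading member of each family, members with a known vascular or barrier role, list genes past the threshold, and BSG, EMB and TXNIP. Other members were named, after their values were seen, where they completed a family or differed without overlap. Scripts were tested on simulated data. Alternatives were RLE scaling, no composition scaling, other filters, edgeR's version 4 form, DESeq2 1.42.0, 1 fit over 16 libraries, other blocks and leaving out each rabbit. The BT libraries of rabbit 3 were left out as an alternative chosen after seeing the data. One transporter and 1 marker gene are not reported here.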

Additional observations from a re-analysis of the deposited data

How the results depend on the processing

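Named members gave 671 values under alternatives, of which 616 kept direction and side of the threshold, 33 passed newly, 18 no longer passed and 4 turned. With all genes with a count tested, the transporters past the threshold numbered 1 and 5 in the intima of the BA and the BT, 2 and 3 in the media, 1 for BT against BA in the media, 2 for the interaction in the intima and 1 for that of layer and flow. With DESeq2 they numbered 1, 6, 2 and 3 in these tissues, 8 between the layers and 2 for the interaction in the intima. edgeR's version 4 form gave 0 in both media (q of SLC7A11 0.0579 and 0.0753) and 4 between the layers. The fit over 16 libraries gave 0 in both media (0.437 and 0.348). With 1 rabbit left out in turn the counts were 0 to 2 in both intimal tissues, 0 in the BA media, 0 to 4 in the BT media, 1 to 2 between the layers and 0 to 1 for the interaction in the media. Values that turned with 1 rabbit left out were SLC2A1 (-2.77 to 0.24) and SLC38A5 (-1.04 to 9.82) in the BA intima, SLC7A3 in the interaction of the intima (-6.36 to 0.47) and SLC2A12 between layer and flow (-8.60 to 0.30). SLC7A11 in the BA intima was higher without rabbit 3, where 1 library at 0 counts was the sham group. Within a tissue, each ligation fit with 1 rabbit left out had 1 library in a flow group. Its q-value does not measure the spread in that group. The ranges of SLC38A5, SLC7A3 and SLC2A12 also hold fits against libraries at 0, whose size is no measure of the difference. The cause of these shifts was not tested, and 2 rabbits per flow group limit every count.

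Without the replicate block 1 transporter passed between the layers (SLC7A1), with q of 0.0541 for SLC2A1 and 0.0533 for SLC7A7. With counts summed per rabbit and rabbit as the block it was 2, SLC2A1 and SLC38A5. With rabbit as a block, 0 passed for BT against BA and for both interactions of location, and with pairs as a block 0 for layer and flow. Without the BT pair of rabbit 3, SLC2A1 and SLC38A1 passed between the layers and SLC7A7 did not (q = 0.0621).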

Other observations

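Counts of 14 transporters came from 1 or 2 libraries. SLC36A3 had 57 counts in the BA intima of rabbit 4 and none elsewhere, SLC7A10 had 37 in the BA intima of rabbit 3, and SLC16A5 and SLC36A2 had 31 and 22 in the BT intima of rabbit 3. The others were SLC2A2, SLC5A1, SLC5A4, SLC5A7, SLC5A9, SLC5A10, SLC5A11, SLC7A9, SLC7A13 and SLC38A8, with 2 to 33 counts in all. The BT intima of rabbit 3 also held the highest SLC2A12 (60.3 CPM), SLC5A6 (29.4 CPM), SLC43A1 (23.6 CPM) and SLC1A3 (11.9 CPM). Astrocyte markers summed to 158 CPM in that library and to at most 39.9 CPM in the other groups of libraries, and fibroblast markers to 20723 CPM. Of the astrocyte sum, GJB6 gave 129 CPM and SLC1A3, itself on that list, 11.9 CPM, while GFAP was at 0. The genes named for that library were picked once the values were known.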
